A study of Mus with 18 samples.

Results

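C2C12 cells treated with LPS and MIC-1 were compared with control mouse muscle tissue, to describe how cultured myoblasts differ from mature muscle in their sarcomere isoforms, metabolism, cell cycle and matrix. The comparison used 6 of the 18 libraries of the study, the 3 labelled C2C12 LPS-MIC-1 and the 3 labelled muscle control, which are called the cells and the muscle here. C2C12 is a wild type mouse myoblast line, a single line whose replicates are culture samples. These cells had received 1 μg/mL LPS (lipopolysaccharide, a bacterial cell wall component) together with 10 μM MIC-1 (moringa isothiocyanate-1, a plant isothiocyanate), by the labels, for 24 h, in growth medium. The study's text gives a lower MIC-1 dose for these libraries, so the dose is uncertain. The muscle was whole gastrocnemius, a calf muscle, from wild type male C57BL/6 mice given a vehicle, which the labels call saline and the study's text DMSO, with the fat and connective tissue trimmed off. The ages of the mice are not given in the sources used here.

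Treatment, experiment, strain and sex all differed between the cells and the muscle, and the scaling of the 2 tables may have differed too. None of these can be told apart from the difference between cultured cells and tissue. Muscle tissue also holds vessels, nerves, blood and connective tissue cells, and in bulk samples fewer cells of a type and less RNA per cell cannot be told apart. Xist, the X-inactivation transcript of female cells, was at 39.3, 41.7 and 14.8 FPKM in the cells and at 0.0455, 0.0370 and 0.0333 FPKM in the muscle. Eif2s3y, on the Y chromosome, was at 0.740, 0 and 0 FPKM in the cells and at 28.8, 31.6 and 27.0 FPKM in the muscle. FPKM counts fragments per kilobase of transcript, scaled to the fragments of a library, so levels of different genes can be set side by side.

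Skeletal muscle fibres form when dividing myoblasts leave the cell cycle, switch on muscle genes under the MyoD family of transcription factors and fuse. The new fibres first build sarcomeres from embryonic and cardiac-type isoforms and later replace them with adult fast or slow isoforms. The fast fibres that make up most of a mouse calf muscle run on phosphocreatine, glycogen and glycolysis, and release and pump back calcium quickly.

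The cells carried myoblast genes and the muscle carried fibre genes. Cdh15, the M-cadherin of myoblasts, was at 175, 166 and 192 FPKM in the cells and at 9.51, 10.1 and 8.90 FPKM in the muscle. Ckm, the creatine kinase of mature fibres, was at 1.13, 0.963 and 2.88 FPKM in the cells and at 38319, 39953 and 39724 FPKM in the muscle. The C2C12 control and C2C12 LPS libraries were not used, since all 6 of them held the macrophage gene Lyz2 at 1786 to 4761 FPKM and the myoblast gene Myod1 at 0 to 0.0355 FPKM. The first library of the cells used here held a trace of such macrophage genes, with Lyz2 at 48.8, 1.87 and 0.616 FPKM in the 3 libraries. Summed FPKM over 14 macrophage genes was 80.5 to 262 in the cells, most of it Cd14, and 30.4 to 36.5 in the muscle.

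Total FPKM was 666648 to 797063 in the cells and 722825 to 740631 in the muscle. The 10 most abundant genes held 8.34 to 9.29% of the total in the cells and 44.1 to 44.2% in the muscle. Reads per library are not given in the sources used here. Low values of the same gene, under 0.15 FPKM, were compared between libraries, and their commonest ratio was taken as that of 1 read. Relative to the first muscle library, the depth by this ratio was 1.06, 1.3 and 0.685 in the cells. In the other muscle libraries it was 1.01 and 0.994. For the cells, 21.7 to 24.4% of these genes lay at that ratio, and the value measures depth only if both tables were scaled alike. Across genes, log2 values correlated with r between 0.945 and 0.963 among the cells, between 0.959 and 0.961 among the muscle libraries and between 0.410 and 0.438 across the groups.

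Of 21375 gene symbols shared by the 2 tables, 10888 had a mean FPKM over 1 in these 6 libraries and were tested. A tested gene under 1 FPKM in every library of 1 group passed this filter only through the other group. The direction of such a gene was fixed by the filter, and list counts that include it are descriptive. A gene was called when limma gave an adjusted p under 0.05 and a log2 difference over 1 in the same direction in 3 fits, on FPKM as deposited, on libraries scaled to equal totals and on libraries scaled by median ratios. By this rule 3279 genes (30.1%) were higher in the cells and 1604 (14.7%) were lower. These shares are the background for every list count given below. Scaling shifted the differences of all genes, whose median was 1.18 as deposited and 0.14 after median-ratio scaling. Taken alone, the values as deposited gave 5657 higher and 1633 lower genes, and median-ratio scaling gave 3279 higher and 2950 lower genes. Differences below are log2 differences of FPKM + 0.1, the cells minus the muscle, as deposited and with their standard error, and each adjusted p is the largest of the 3 fits. Means are given ± SD over 3 libraries. Overlap of the groups is judged on FPKM as deposited, and genes alike there can lie lower in the cells after median-ratio scaling. Examples are Cox7a2 (-0.23 as deposited, -1.30 scaled), Cav1 (-0.36 and -1.43), Cdkn1b (-0.01 and -1.07) and Col1a1 (-0.32 and -1.39). In the plot of differences by list, genes listed at 0 in 1 group are placed by the 0.1 added to every value.

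**Figure D1:**
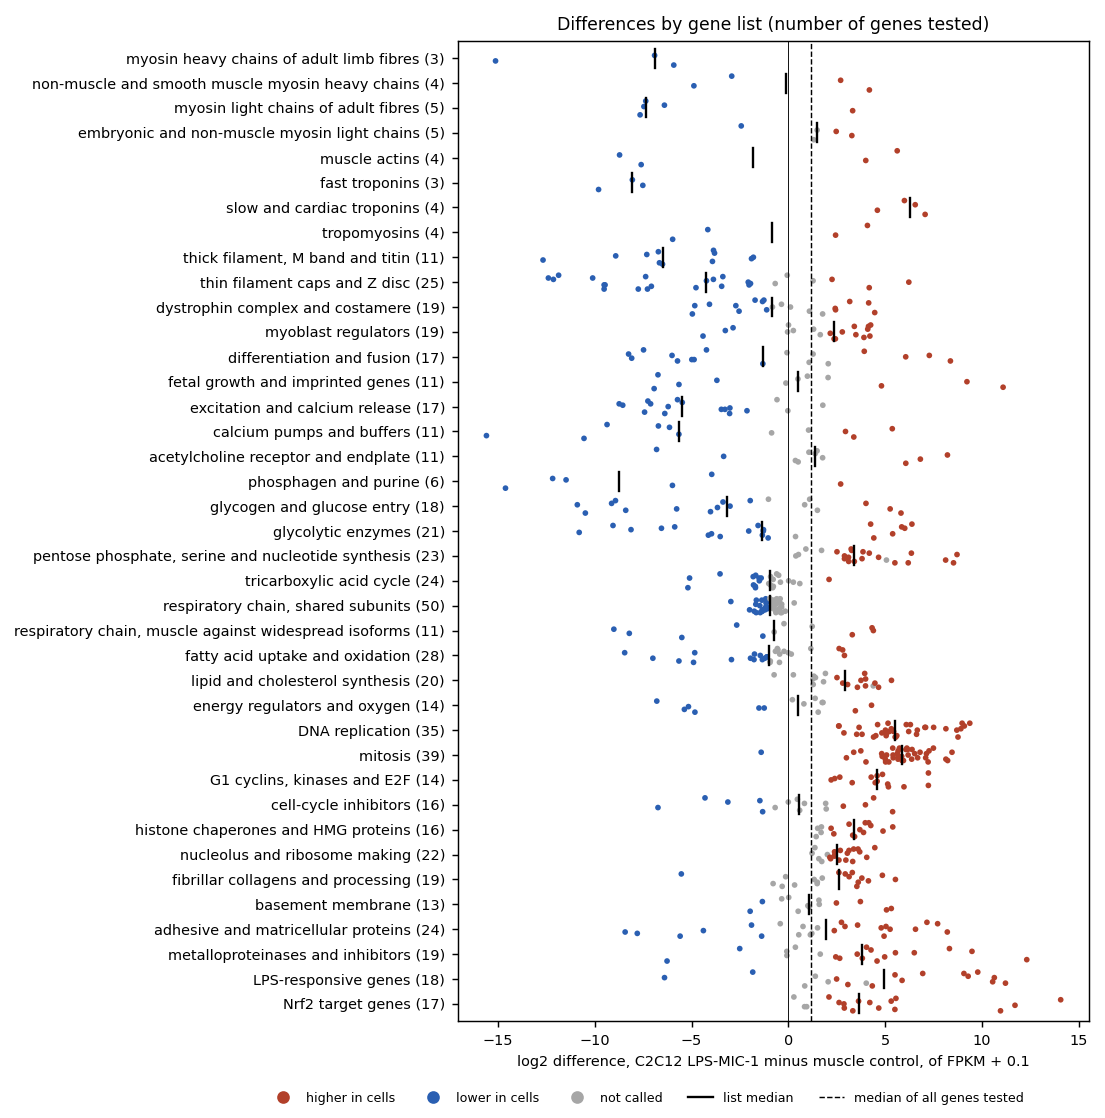
Log2 differences of FPKM + 0.1 between the cells and the muscle for the genes of each list (horizontal axis, cells minus muscle), with 1 point per gene tested, the list median as a black bar and the median of all genes tested (1.18) as a dashed line. Points of fast troponins and thick filament genes lie left of 0, and those of DNA replication and G1 genes lie right of it.

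The sarcomere of the muscle was that of fast adult fibres, and most of its genes were lower in the cells, some of them near 0 and others at over 100 FPKM. All 3 tested heavy chains of adult limb myosin were lower in the cells, and Myh3 was higher. Myh4, the heavy chain of the fastest fibres, was at 0.131, 0.0580 and 0.605 FPKM in the cells and at 10657, 10017 and 10900.2 FPKM in the muscle (difference -15.12 ± 0.53, adjusted p = 8.88e-07). Every muscle library lay more than 4 orders of magnitude above every library of the cells. Myh1, a heavy chain of other fast fibres, was at 1.78, 1.31 and 0.748 against 77.7, 77.7 and 82.0 FPKM (-5.92 ± 0.28, adjusted p = 5.62e-06). Myh2, of fast oxidative fibres, was at 0.0471, 0.0383 and 0.0546 against 16.9, 16.7 and 19.1 FPKM (-6.91 ± 0.16, adjusted p = 2.31e-07).

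The heavy chain with the highest level among the sarcomeric ones in the cells was Myh3, the embryonic form, at 6.03, 6.68 and 5.93 FPKM against 0.139, 0.101 and 0.0127 FPKM in the muscle (5.17 ± 0.33, adjusted p = 6.38e-05). Myh8, the perinatal form, was at 0.0474 to 0.128 FPKM in the cells and 0.184 to 0.285 FPKM in the muscle, and Myh7, the heavy chain of slow fibres and heart, at 0.686, 0.838 and 0.384 FPKM in the cells and 0.162, 0.124 and 0.189 FPKM in the muscle, both too low to be tested. Within each library, Myh3 and Myh8 held 69.9, 75.0 and 77.1 percent of the summed FPKM of 6 limb heavy chains in the cells and 0.00299 percent in the muscle, where Myh4 held 99.1 ± 0.0270 percent. The families differed in size, since these 6 genes summed to 7.83 to 8.97 FPKM in the cells and to 10112 to 11002 FPKM in the muscle. Of 4 non-muscle and smooth muscle heavy chains, 2 were higher in the cells and 2 lower. Myh9, of the contractile cytoskeleton of most cells, was at 148, 148 and 119 FPKM in the cells and at 7.56, 7.68 and 7.23 FPKM in the muscle (4.18 ± 0.10, adjusted p = 9.18e-07). Myh10 was at 8.01 ± 0.768 FPKM in the cells and 1.15 ± 0.0993 FPKM in the muscle (2.70 ± 0.13, adjusted p = 3.11e-05).

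Light chains followed the heavy chains in part. Mylpf, the regulatory light chain of fast myosin, was at 313, 265 and 445 FPKM in the cells and at 28306, 28764 and 27396 FPKM in the muscle (-6.40 ± 0.20, adjusted p = 6.49e-07). Myl1, the fast essential light chain, was at 160.4, 196 and 214 FPKM in the cells and 36976, 38028 and 39458 FPKM in the muscle (-7.66 ± 0.13, adjusted p = 1.21e-07). Both were far better represented in the cells than Myh4. Myl3, an essential light chain of slow fibres and heart, was listed at 0 in all 3 libraries of the cells and was at 17.2, 15.4 and 16.6 FPKM in the muscle (adjusted p = 2.31e-07). Myl2, the slow and cardiac regulatory light chain, was higher in the cells, at 10.5, 10.965 and 6.79 FPKM against 1.06, 0.900 and 0.603 FPKM (3.32 ± 0.27, adjusted p = 0.000228). That call did not hold for every mouse group of the study, since Myl2 averaged 49.3 FPKM in the muscle of mice given LPS and MIC-1, above the cells. Myl6, the light chain of non-muscle myosin, was at 1133 ± 149 FPKM in the cells and 117 ± 10.1 FPKM in the muscle (3.27 ± 0.12, adjusted p = 1.14e-05). Myl4, the embryonic light chain, overlapped between the groups at 2.75, 2.06 and 0 FPKM in the cells and 0.105, 0 and 1.88 FPKM in the muscle (adjusted p = 0.712), and Myl9, of smooth muscle myosin, was lower in the cells at 8.46, 4.52 and 9.34 against 38.7, 38.006 and 39.8 FPKM (-2.44 ± 0.27, adjusted p = 0.000162).

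Actin genes split by tissue type. Acta1, the actin of adult skeletal muscle, was at 217, 287 and 344 FPKM in the cells and at 53382, 56819.5 and 51768 FPKM in the muscle (-7.60 ± 0.18, adjusted p = 3.34e-07). Actc1, the cardiac actin that developing skeletal muscle also makes, was lower in the cells too, at 5.24, 7.43 and 7.49 against 2789, 2902 and 2812 FPKM (-8.72 ± 0.15, adjusted p = 1.08e-07). The coding sequences of these genes are nearly identical, so reads may have been split between them and their separate levels are uncertain. Acta2, the smooth muscle actin that myoblasts and myofibroblasts also make, was at 299, 292 and 359 FPKM in the cells and 18.4, 20.9 and 19.954 FPKM in the muscle (3.99 ± 0.10, adjusted p = 2.31e-06). The cytoplasmic actins Actb and Actg1 were at 3906, 4007 and 4834 and 2175, 2192 and 2825 FPKM in the cells, against 340.0, 339 and 339 and 35.6, 35.1 and 32.9 FPKM in the muscle (3.64 ± 0.11, adjusted p = 5.09e-06 for Actb and 6.10 ± 0.12, adjusted p = 5.13e-07 for Actg1). Acta1, Actc1 and Acta2 together held 8.34 ± 0.398 percent of the summed FPKM of these 5 actins in the cells and 99.3 ± 0.0284 percent in the muscle.

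Troponin, the calcium switch of the thin filament, has fast and slow or cardiac forms of each subunit, and the 2 sets differed in opposite directions. All 3 fast subunits were lower in the cells, with a median difference of -8.06, and all 4 tested slow or cardiac subunits were higher, with a median of 6.27, beside 1.18 over all genes. Tnnc2, the fast calcium-binding subunit, was at 29.7, 35.7 and 41.0 FPKM in the cells and at 30796, 30545 and 33094 FPKM in the muscle (-9.80 ± 0.13, adjusted p = 7.15e-08). Tnnc1, its slow and cardiac counterpart, was at 224, 264 and 325 FPKM in the cells and at 1.53, 2.06 and 2.21 FPKM in the muscle (7.06 ± 0.19, adjusted p = 1.12e-06). No library of one group reached the other for either gene.

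The tropomyosin-binding subunits behaved likewise. Tnnt3, the fast form, was at 52.0 ± 2.68 FPKM in the cells and 9535 ± 449 FPKM in the muscle (-7.52 ± 0.08, adjusted p = 4.39e-08). Tnnt2, the cardiac form that embryonic skeletal muscle uses, was at 83.9 ± 1.74 FPKM in the cells and 1.27 ± 0.419 FPKM in the muscle (5.99 ± 0.23, adjusted p = 4.45e-06). Tnnt1, the slow form, was at 11.4, 8.10 and 11.6 FPKM in the cells and 0.704, 0 and 0.880 FPKM in the muscle (4.59 ± 0.87, adjusted p = 0.0127), and averaged 13.6 FPKM in mice given LPS and MIC-1. Of the inhibitory subunits, Tnni2, the fast form, was at 101.70 ± 18.4 FPKM in the cells and 26847 ± 661 FPKM in the muscle (-8.06 ± 0.14, adjusted p = 1.19e-07). Tnni1, the slow form, was at 86.1 ± 13.8 FPKM in the cells and 0.848 ± 0.303 FPKM in the muscle (6.55 ± 0.27, adjusted p = 5.63e-06). As shares of their family within a library, Tnnc1 held 88.4 ± 0.366 percent in the cells and 0.00614 percent in the muscle, Tnnt2 57.4 ± 2.11 and 0.0135 percent, and Tnni1 45.9 ± 2.39 and 0.00318 percent. With 3 libraries against 3, an exact permutation test of such a share cannot give a p below 0.1, so shares are described without a test.

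**Figure D2:**
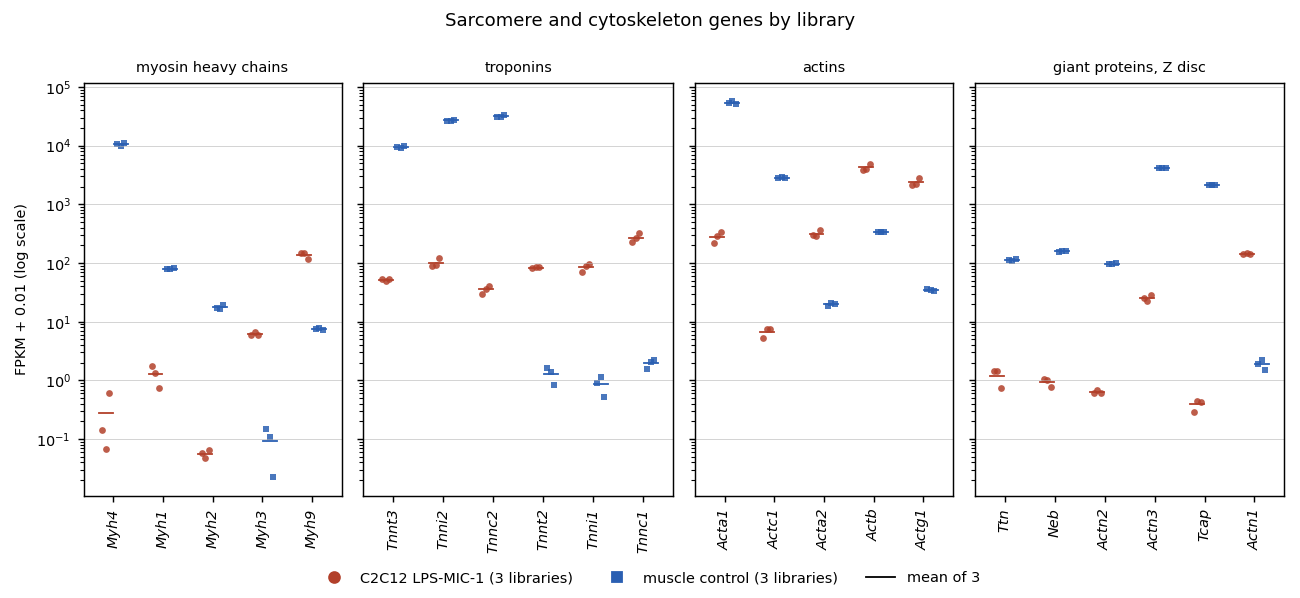
FPKM of sarcomere and cytoskeleton genes in each library (vertical axis, FPKM + 0.01 on a log scale), with red circles for the 3 libraries of the cells, blue squares for the 3 muscle libraries and bars for means. The fast troponins, Acta1, Ttn and Neb are higher in the muscle, while Tnnt2, Tnni1, Tnnc1, Actb, Actg1 and Actn1 are higher in the cells.

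Tropomyosins lie along the actin filament. Tpm1 and Tpm2, the striated muscle genes, were lower in the cells, at 528 ± 39.3 against 33220.1 ± 1159 FPKM (-5.98 ± 0.11, adjusted p = 1.31e-07) and at 125 ± 8.12 against 2240.4 ± 90.1 FPKM (-4.16 ± 0.08, adjusted p = 1.46e-07). Tpm4, a cytoskeletal form, was at 315, 271 and 362 FPKM in the cells and 18.6, 17.2 and 19.7 FPKM in the muscle (4.08 ± 0.12, adjusted p = 2.98e-06), and held 31.8 percent of tropomyosin FPKM in the cells against 0.0521 percent. Tpm3 was at 20.6, 29.7 and 10.978 FPKM in the cells and 5.62, 2.64 and 2.66 FPKM in the muscle (2.44 ± 0.45, adjusted p = 0.0252), a call that was lost when replicate 1 or 2 of the cells or replicate 2 or 3 of the muscle was left out, with an adjusted p of 0.0642 to 0.0853 by limma.

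All 11 tested genes of the thick filament, M band and titin were lower in the cells, with a median of -6.50. Ttn, which encodes titin, the elastic protein that runs from the Z disc to the M band, was at 1.43, 1.43 and 0.732 FPKM in the cells and at 112, 109.9 and 117 FPKM in the muscle (-6.50 ± 0.25, adjusted p = 2.33e-06). Mybpc2, the fast myosin-binding protein C, was at 0.121, 0.181 and 0.343 against 1960.5, 1968 and 1974 FPKM (-12.67 ± 0.24, adjusted p = 1.46e-07). Mybpc1, its slow form, was listed at 0 in 1 library of the cells and was at 0.0186, 0 and 0.0287 against 17.9, 17.9 and 18.8 FPKM (-7.31 ± 0.18, adjusted p = 2.70e-07). Myom1 and Myom2 encode myomesins of the M band. They differed in size of effect, with 0.347 ± 0.147 and 208 ± 4.46 FPKM for Myom1 (-8.92 ± 0.23, adjusted p = 3.97e-07) and 16.4 ± 0.721 and 249.9 ± 5.09 FPKM for Myom2 (-3.92 ± 0.06, adjusted p = 9.25e-08). Trim63, the ligase MuRF1 that marks muscle proteins for degradation, was at 0.573, 0.996 and 0.821 FPKM in the cells and 88.3, 88.6 and 89.2 FPKM in control muscle (-6.66 ± 0.18, adjusted p = 3.85e-07).

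Of 25 tested genes of the thin filament caps and the Z disc, 19 were lower in the cells, 3 were higher and 3 were not called. Neb, for nebulin, the ruler of the thin filament, was at 1.04, 1.02 and 0.760 against 157, 159 and 163 FPKM (-7.28 ± 0.12, adjusted p = 1.61e-07). Tcap, the titin cap of the Z disc, was at 0.274, 0.443 and 0.423 against 2139, 2120.0 and 2121 FPKM (-12.13 ± 0.15, adjusted p = 6.69e-08). Myoz1, a calcineurin-binding Z disc protein of fast fibres, was at 0.440, 0.458 and 0.581 against 3099, 3161 and 3256 FPKM (-12.39 ± 0.10, adjusted p = 2.44e-08). The α-actinins, which cross-link actin at the Z disc in muscle and at stress fibres elsewhere, changed places. Actn3, of fast fibres, was at 25.5 ± 3.25 FPKM in the cells and 4210.4 ± 31.8 FPKM in the muscle (-7.37 ± 0.10, adjusted p = 7.53e-08) and Actn2 at 0.623 ± 0.0498 FPKM in the cells and 97.4 ± 3.03 FPKM in the muscle (-7.08 ± 0.09, adjusted p = 6.74e-08), whereas the non-muscle Actn1 was at 141, 150.3 and 141 FPKM in the cells and 1.88, 2.24 and 1.48 FPKM in the muscle (6.22 ± 0.15, adjusted p = 6.93e-07) and Actn4 at 205 ± 18.4 FPKM in the cells and 11.2 ± 0.994 FPKM in the muscle (4.17 ± 0.10, adjusted p = 1.49e-06).

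The third Z disc gene higher in the cells was Flnc, which encodes filamin C, at 39.4, 27.4 and 14.6 against 5.58, 6.83 and 3.67 FPKM (2.25 ± 0.40, adjusted p = 0.0270). Without replicate 1 or 2 of the cells or replicate 1 or 3 of the muscle its adjusted p by limma was 0.0589 to 0.0921 and it was no longer called. Myot, for myotilin, was listed at 0 in all libraries of the cells and was at 367, 370.2 and 382 FPKM in the muscle. Des, the muscle intermediate filament desmin, was present in both, at 358, 347 and 488 FPKM in the cells and 1669.5, 1561 and 1591 FPKM in the muscle (-2.03 ± 0.14, adjusted p = 1.84e-05). The genes not called were Lmod2 at 2.81 FPKM in the cells and 2.93 FPKM in the muscle, Myoz2 at 2.53 FPKM in the cells and 4.14 FPKM in the muscle and Csrp3 at 2.76 FPKM in the cells and 1.19 FPKM in the muscle. In mice given LPS and MIC-1 these genes averaged 104 FPKM for Lmod2, 17.6 FPKM for Myoz2 and 132 FPKM for Csrp3, above both groups.

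Of 19 tested genes of the membrane complex that ties the sarcomere to the matrix, 9 were lower, 5 were higher and 5 were not called. Among all genes tested, 14.7% were lower and 30.1% higher. Sgca, which encodes α-sarcoglycan, was lower in the cells, at 12.8 ± 0.478 against 218 ± 5.05 FPKM (-4.08 ± 0.06, adjusted p = 8.81e-08). Cav3, the caveolin of muscle, was at 3.32, 2.74 and 1.96 against 79.6, 89.9 and 84.0 FPKM (-4.96 ± 0.19, adjusted p = 2.81e-06). Cav1, the caveolin of other cells, overlapped at 44.1, 58.3 and 74.2 FPKM in the cells and 75.2, 70.5 and 76.1 FPKM in the muscle (adjusted p = 0.111). The integrin genes Itga7 and Itga5 were higher in the cells, whereas Itga4 overlapped and was not called. Itga7, the laminin receptor of myoblasts and fibres, was at 252, 235 and 273 against 11.4, 11.8 and 11.042 FPKM (4.46 ± 0.08, adjusted p = 4.77e-07). Itga5, a fibronectin receptor, was at 63.3 ± 5.59 against 3.49 ± 0.376 FPKM (4.14 ± 0.11, adjusted p = 1.60e-06). Dmd, for dystrophin, was listed at 0 in the cells and at 0.408, 0.214 and 0.265 FPKM in the muscle, too low to be tested. Whether the Dmd row covers all transcripts of the gene is not given in the sources used here, so its level is uncertain. Dysf, for the repair protein dysferlin, was called lower at 0, 0.391 and 1.23 against 1.84, 1.33 and 6.55 FPKM (-2.71 ± 1.05, adjusted p = 0.0482), but not without replicate 1 or 2 of the cells or replicate 1 or 2 of the muscle, when its adjusted p by limma was 0.0572 to 0.0991.

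Genes of the myoblast state were higher in the cells in 11 of 19 cases tested, lower in 3 and not called in 5, with a median of 2.36. Myf5, which marks committed precursors, was at 4.29, 7.08 and 6.56 FPKM in the cells and at 0.931, 1.08 and 1.01 FPKM in the muscle (2.43 ± 0.22, adjusted p = 0.00141). Myod1, the founding member of the family, was at 56.7, 49.5 and 55.7 FPKM in the cells and 23.0, 23.1 and 19.6 FPKM in the muscle, a difference of 1.2999 that was close to the median of all genes and was not called (adjusted p = 0.0732). Pax7, the marker of quiescent satellite cells, was at 0.0680, 0.111 and 0 FPKM in the cells and at 0.682, 0.643 and 0.615 FPKM in the muscle and was too low to be tested. Cdh15 differed by 4.21 ± 0.09, adjusted p = 8.46e-07 at the levels given above. The inhibitors of myogenic factors Id1 and Id2 were higher in the cells, with Id1 at 97.0, 94.7 and 86.2 against 18.6, 18.8 and 16.5 FPKM (2.36 ± 0.08, adjusted p = 1.30e-05) and Id2 at 25.6 against 1.51 FPKM. Msc, which encodes the MyoD repressor musculin, was at 1.09, 1.95 and 4.07 against 0, 0 and 0.628 FPKM (3.48 ± 0.91, adjusted p = 0.0425), and its call was lost without replicate 2 of the cells or replicate 1 or 2 of the muscle (adjusted p 0.0910 to 0.120 by limma). Hes1, a Notch target, was at 225 ± 19.8 against 11.8 ± 1.41 FPKM (4.25 ± 0.12, adjusted p = 1.18e-06). Twist1, listed at 0 in the cells and at 2.19, 2.23 and 1.70 FPKM in the muscle, and Heyl, at 0.127 FPKM in the cells and 2.08 FPKM in the muscle, were lower.

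Differentiation genes split between those of fusing cells and those of mature fibres, with 4 of 17 higher, 9 lower and 4 not called. The shares of all genes tested were 30.1% higher and 14.7% lower. Tmem8c, which encodes the fusion protein myomaker, was at 132, 139.7 and 185 FPKM in the cells and at 0.425, 0.138 and 0.670 FPKM in the muscle (8.36 ± 0.43, adjusted p = 1.33e-05). Gm7325, the symbol of the fusion protein myomixer, was at 3.25, 3.61 and 4.37 against 0.119, 0.118 and 0.238 FPKM (3.92 ± 0.27, adjusted p = 0.000115). Every library of the cells was above every muscle library for both fusion genes. Myog, for myogenin, which starts terminal differentiation, was at 23.6, 25.7 and 34.3 FPKM in the cells and 6.75, 6.37 and 6.50 FPKM in the muscle, with a difference of 2.06 ± 0.15, adjusted p = 0.00155, and was not called because its difference after median-ratio scaling was under 1. Myf6, the family member of mature fibres, was at 0.130, 0.158 and 0.402 against 95.7, 92.1 and 95.8 FPKM (-8.25 ± 0.30, adjusted p = 9.81e-07). Mef2c, a cofactor of these proteins, was at 0.713, 0.326 and 0 against 60.7, 51.5 and 62.7 FPKM (-7.48 ± 0.73, adjusted p = 0.000103). Mstn, which encodes the growth inhibitor myostatin, was listed at 0 in the cells and was at 26.4, 26.6 and 28.6 FPKM in the muscle (adjusted p = 1.19e-07).

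Of 11 tested genes of fetal growth and imprinting, 3 were higher, 4 lower and 4 not called, beside 30.1% higher and 14.7% lower among all genes, with a median of 0.49 as deposited that turned to -0.54 after median-ratio scaling. Hmga2, a chromatin protein of embryonic and dividing cells, was at 96.0, 117 and 78.5 FPKM in the cells and at 0.0619, 0.0411 and 0.0831 FPKM in the muscle (9.22 ± 0.19, adjusted p = 2.79e-07). Igf2bp2, an RNA-binding protein of myoblasts, was at 20.6, 16.9 and 14.4 against 0.454, 0.629 and 0.477 FPKM (4.80 ± 0.19, adjusted p = 4.04e-06). Igfbp2, which binds insulin-like growth factors, was at 202, 201 and 251 FPKM in the cells and listed at 0 in the muscle. The imprinted growth factor gene Igf2 was listed at 0 in the cells and at 0.191, 0.550 and 0.748 FPKM in the muscle, and H19 was listed at 0 in all 6 libraries. A row listed at 0 throughout may not cover the gene, so the level of H19 is uncertain. Igf1 was lower in the cells at 0.657, 0.311 and 0.312 against 6.11, 6.58 and 6.60 FPKM (-3.69 ± 0.27, adjusted p = 3.89e-05).

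The machinery that turns a nerve impulse into calcium release was mostly at low levels in the cells. None of 17 tested genes of excitation and calcium release was higher in the cells, 14 were lower and 3 were not called, with a median of -5.48. Ryr1, the calcium release channel, was at 3.09, 3.02 and 2.07 FPKM in the cells and at 236, 229 and 231 FPKM in the muscle (-6.38 ± 0.16, adjusted p = 5.65e-07). Cacna1s, its voltage sensor, was at 0.901, 1.07 and 0.738 against 136, 138 and 138 FPKM (-7.11 ± 0.13, adjusted p = 1.88e-07). Scn4a, the muscle sodium channel, was at 0.249, 0.273 and 0.0837 against 46.4, 43.9 and 41.6 FPKM (-7.26 ± 0.28, adjusted p = 1.96e-06). Clcn1, the chloride channel that steadies the resting membrane, was at 0.513, 0.456 and 0.600 against 46.3, 47.2 and 43.8 FPKM (-6.21 ± 0.12, adjusted p = 1.43e-07). Trdn, for triadin of the release complex, was at 0.819, 0.888 and 0.521 against 352, 339.6 and 367 FPKM (-8.74 ± 0.18, adjusted p = 2.25e-07). The 3 genes not called were Cacng1 at 273 FPKM in the cells and 411 FPKM in the muscle, Fkbp1a at 447 FPKM in the cells and 129.7 FPKM in the muscle and Bin1 at 622 FPKM in the cells and 633 FPKM in the muscle, so these 3 parts of the apparatus were abundant in both groups.

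Calcium pumps changed isoform. Atp2a1, the fast muscle pump SERCA1, was at 9.65, 8.48 and 7.48 FPKM in the cells and at 13158, 13239 and 12338 FPKM in the muscle (-10.55 ± 0.11, adjusted p = 4.01e-08). Atp2a2, the pump of slow muscle, heart and most other cells, was at 90.8, 81.2 and 83.6 against 1.90, 1.79 and 2.25 FPKM (5.36 ± 0.11, adjusted p = 3.94e-07). Atp2a2 held 90.9 ± 0.764 percent of their sum in the cells and 0.0154 percent in the muscle. Pvalb, for parvalbumin, the calcium buffer of fast fibres, had the most negative difference of all genes tested, at 0.356, 0.0720 and 2.33 against 27801, 28217 and 29292 FPKM (-15.59 ± 0.90, adjusted p = 6.95e-06). Its values in the cells varied widely, but all lay far under the muscle libraries. Casq1, the calcium store protein of fast fibres, was at 5.03, 3.94 and 2.67 against 2613, 2507 and 2511 FPKM (-9.36 ± 0.22, adjusted p = 3.04e-07). Calr, the store protein of the general endoplasmic reticulum, was at 1011, 964 and 1069.9 against 98.3, 95.9 and 98.7 FPKM (3.38 ± 0.07, adjusted p = 1.39e-06). Sln, the pump inhibitor sarcolipin, was listed at 0 in the cells and at 4.72, 4.01 and 6.35 FPKM in the muscle.

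The acetylcholine receptor, which receives the signal of the motor nerve, has a γ subunit before innervation and an ε subunit after it. Chrng, the γ subunit, was at 36.9, 37.2 and 38.1 FPKM in the cells and at 0.0424, 0 and 0.0426 FPKM in the muscle (8.21 ± 0.19, adjusted p = 7.61e-07). Chrne, the ε subunit, was at 0.0985, 0 and 0.152 against 19.1, 19.5 and 18.5 FPKM (-6.81 ± 0.35, adjusted p = 4.18e-06). Chrng held 99.8 ± 0.202 percent of the sum of both in the cells and 0.221, 0 and 0.230 percent in the muscle. The α and δ subunits, common to both forms, were higher in the cells, Chrna1 at 113, 106 and 134 against 1.85, 1.70 and 1.45 FPKM (6.06 ± 0.13, adjusted p = 5.39e-07) and Chrnd at 50.4, 50.3 and 59.0 against 0.365, 0.337 and 0.420 FPKM (6.81 ± 0.12, adjusted p = 2.91e-07). Chrnb1, also common, was at 60.1 ± 2.22 FPKM in the cells and 23.0 ± 1.40 FPKM in the muscle and was not called (1.38 ± 0.07, adjusted p = 0.00767). Ache, the esterase that ends the signal, was lower in the cells at 0.341, 0.360 and 0.263 against 3.90, 7.53 and 2.43 FPKM (-3.34 ± 0.41, adjusted p = 0.000395), and the remaining 5 of the 11 tested genes of the endplate, among them Musk, Rapsn and Agrn, were not called.

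**Figure D3:**
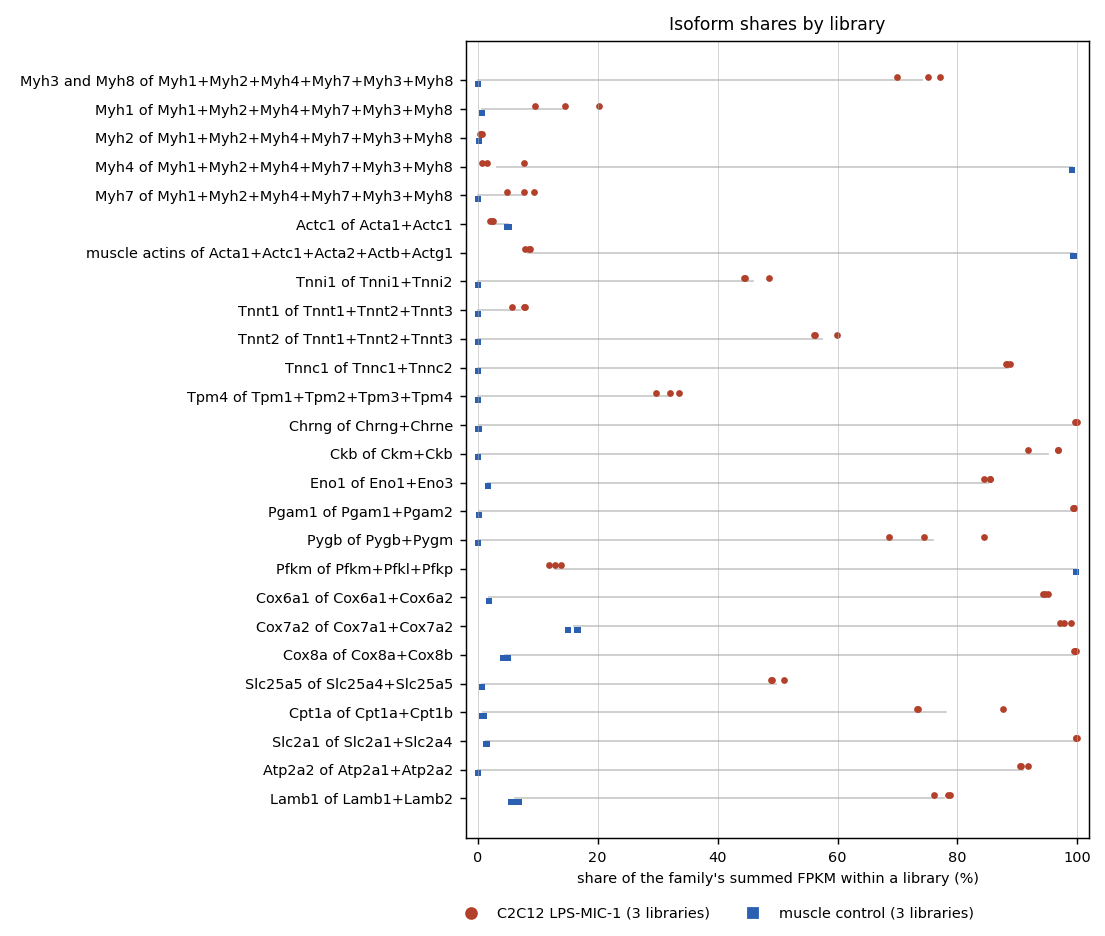
Share of the summed FPKM of an isoform family held by the named member in each library (horizontal axis, percent), with red circles for the 3 libraries of the cells and blue squares for the 3 muscle libraries. Chrng, Pgam1, Cox8a and Slc2a1 are near 100% in the cells and under 6% in the muscle, while the muscle actins, Myh4 and Pfkm are over 99% in the muscle.

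Metabolic genes of the phosphocreatine buffer were lower in the cells in 5 of 6 cases tested. Ckm, at the levels given above, differed by -14.61 ± 0.38, adjusted p = 3.54e-07, and Ckmt2, the mitochondrial muscle form, was at 0, 0.390 and 0 against 763, 783 and 808 FPKM (-12.17 ± 0.62, adjusted p = 4.20e-06). Ckb, the creatine kinase of brain and many other tissues, was the exception, at 34.1, 28.1 and 32.1 against 4.57, 5.61 and 4.18 FPKM (2.70 ± 0.14, adjusted p = 5.19e-05), and held 95.1 ± 2.88 percent of Ckm and Ckb in the cells against 0.0122 percent. Ak1 and Ampd1, which rebalance adenine nucleotides in working muscle, were at 73.2 ± 7.41 and 0.141 ± 0.0478 FPKM in the cells and at 1136 ± 19.7 and 681 ± 12.4 FPKM in the muscle (-3.96 ± 0.09, adjusted p = 2.08e-07 and -11.48 ± 0.15, adjusted p = 7.15e-08).

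Of 18 tested genes of glycogen and glucose entry, 11 were lower in the cells, 3 were higher and 4 were not called. All genes tested had 14.7% lower and 30.1% higher. Pygm, the muscle glycogen phosphorylase, was at 4.17, 4.77 and 2.42 against 5259, 5435 and 5396 FPKM (-10.48 ± 0.24, adjusted p = 2.90e-07). Pygb, the brain form, was at 12.1, 10.4 and 13.2 against 0.49959, 0.616 and 0.865 FPKM (4.0041 ± 0.21, adjusted p = 2.85e-05). Phka1, a subunit of the kinase that activates phosphorylase, was at 2.61 ± 0.177 against 148 ± 2.90 FPKM (-5.77 ± 0.07, adjusted p = 7.27e-08). Slc2a4, the insulin-responsive glucose transporter GLUT4, was at 0.475, 0.386 and 0.285 FPKM in the cells and at 254, 264 and 282 FPKM in the muscle (-9.13 ± 0.15, adjusted p = 1.08e-07). Slc2a1, the basal transporter GLUT1 of dividing cells, was at 245, 201 and 232 against 3.48, 4.38 and 3.93 FPKM (5.81 ± 0.12, adjusted p = 3.97e-07), so that the 2 transporters exchanged places while their sum was of the same order in both groups, 201 to 246 FPKM in the cells and 257 to 285 FPKM in the muscle. Hexokinases, which trap glucose in the cell, differed by form as well, with Hk1 at 90.5, 91.4 and 90.6 against 2.33, 2.32 and 2.21 FPKM (5.25 ± 0.07, adjusted p = 1.07e-07) and Hk2, the insulin-responsive form, at 20.7, 20.0044 and 18.0 FPKM in the cells and 40.5, 39.4 and 40.0 FPKM in the muscle and not called (-1.03 ± 0.07, adjusted p = 0.000312).

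Glycolytic genes differed by isoform, and 14 of 21 tested genes were lower in the cells, 6 were higher and 1, Pgk1, was not called. At phosphofructokinase, Pfkm, the muscle form, was at 18.2, 13.5 and 17.9 against 1554, 1549.9 and 1548 FPKM (-6.55 ± 0.12, adjusted p = 1.40e-07). Pfkl, the liver form, was at 93.8, 87.0 and 103 against 2.39, 2.60 and 1.64 FPKM (5.38 ± 0.18, adjusted p = 2.72e-06). At phosphoglycerate mutase, Pgam2, the muscle form, was at 2.90, 3.05 and 3.43 against 5631, 5836 and 5775 FPKM (-10.80 ± 0.08, adjusted p = 1.90e-08). Pgam1 was at 513, 458 and 655 against 9.40, 9.91 and 8.37 FPKM (5.85 ± 0.15, adjusted p = 1.02e-06). At enolase, Eno3, the muscle form, was at 363 ± 45.6 FPKM in the cells and 5656 ± 138 FPKM in the muscle (-3.97 ± 0.11, adjusted p = 4.88e-07). Eno1, the widespread form, was at 2066 ± 157 FPKM in the cells and 97.0 ± 0.473 FPKM in the muscle (4.41 ± 0.08, adjusted p = 7.18e-07). Eno1 has near copies elsewhere in the genome, so its level is uncertain.

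Among the other glycolytic genes, Gapdh was at 2308 ± 207 FPKM in the cells and 9530.1 ± 442 FPKM in the muscle (-2.05 ± 0.12, adjusted p = 6.54e-06), Aldoa at 1823 ± 272 FPKM in the cells and 31752 ± 491 FPKM in the muscle (-4.13 ± 0.14, adjusted p = 9.64e-07) and Ldha, the lactate dehydrogenase subunit of fast muscle and of many dividing cells, at 944 ± 149 FPKM in the cells and 2285 ± 82.2 FPKM in the muscle (-1.29 ± 0.13, adjusted p = 0.000107). Pkm2, the symbol used in the files for pyruvate kinase of muscle and dividing cells, was at 1842, 1824 and 2009 against 22.6, 23.4 and 22.0 FPKM (6.38 ± 0.07, adjusted p = 8.71e-08). Whether that row covers both splice forms of the gene is not given in the sources used here. In the muscle it lay far under Aldoa, Gapdh and Eno3, so its difference is not read as one of total pyruvate kinase. Gpd1, of the glycerol phosphate shuttle, was at 0.508 ± 0.0490 against 323 ± 7.82 FPKM (-9.06 ± 0.09, adjusted p = 3.57e-08). Fbp2, the muscle fructose bisphosphatase, was at 0, 0 and 0.566 against 48.0, 50.9 and 59.1 FPKM (-8.13 ± 0.75, adjusted p = 6.49e-05).

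**Figure D4:**
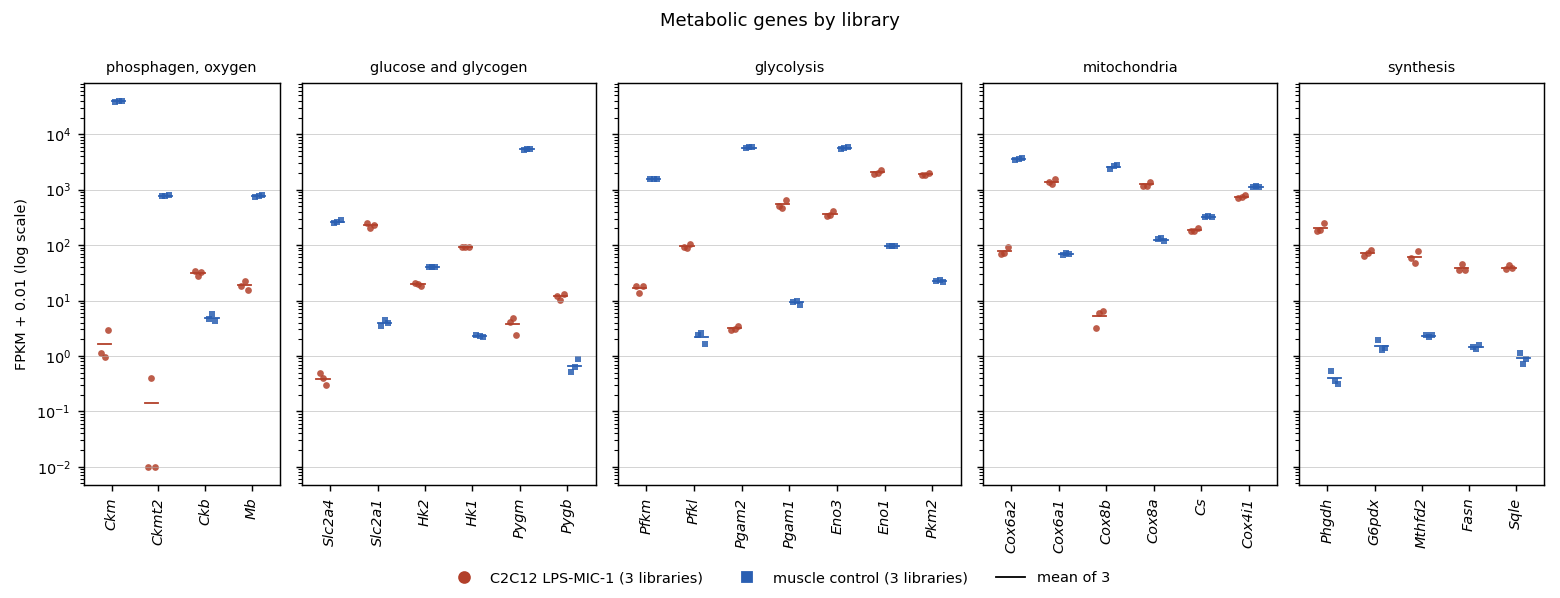
FPKM of metabolic genes in each library (vertical axis, FPKM + 0.01 on a log scale), with red circles for the 3 libraries of the cells, blue squares for the 3 muscle libraries and bars for means. Pairs of isoforms such as Slc2a4 and Slc2a1, Pfkm and Pfkl, or Cox6a2 and Cox6a1 lie in opposite order in the 2 groups, while Cs and Cox4i1 differ by less than 1 on the log2 scale.

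Mitochondrial genes shared by all tissues were lower in the cells or were not called, with few exceptions. The 50 shared subunits of the respiratory chain had a median difference of -0.95, or -2.03 after median-ratio scaling, with 22 lower in the cells, none higher and 28 not called. In the values as deposited, Cox4i1, of cytochrome oxidase, was at 713, 734 and 799 FPKM in the cells and 1138, 1161 and 1112 FPKM in the muscle and was not called (-0.60 ± 0.08, adjusted p = 0.000401, or -1.68 after median-ratio scaling). Atp5a1, of the ATP synthase, was at 292, 281 and 341 FPKM in the cells and 654, 655 and 665 FPKM in the muscle and was called lower (-1.11 ± 0.09, adjusted p = 3.64e-05). The tricarboxylic acid cycle was alike, with 11 of 24 genes lower, 1 higher and 12 not called. Cs, the citrate synthase often used as a measure of mitochondrial content, was at 178, 178 and 205 FPKM in the cells and 327, 334 and 322 FPKM in the muscle and was not called (-0.81 ± 0.08, adjusted p = 8.75e-05, or -1.89 after median-ratio scaling), whereas Idh3a was lower at 24.5, 27.5 and 31.5 against 323, 326 and 315 FPKM (-3.53 ± 0.10, adjusted p = 4.53e-07) and Pdk4, a brake on pyruvate use, at 0.936, 1.18 and 0.690 against 35.5, 33.7 and 35.2 FPKM (-5.10 ± 0.18, adjusted p = 2.33e-06). Leaving out single libraries gave 19 to 22 lower genes among the shared subunits.

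Muscle forms of cytochrome oxidase subunits were at low levels in the cells. Cox6a2, the muscle form, was at 70.3, 73.1 and 93.9 against 3432, 3575 and 3685 FPKM (-5.50 ± 0.12, adjusted p = 2.48e-07). Cox6a1, the widespread form, was at 1360.3, 1273 and 1545 against 67.6, 71.1 and 69.8 FPKM (4.32 ± 0.09, adjusted p = 9.76e-07). Cox8b was at 3.17, 5.85 and 6.50 against 2389, 2709 and 2734 FPKM (-9.01 ± 0.26, adjusted p = 5.60e-07). Cox8a was at 1183, 1167 and 1378 against 127, 133 and 118 FPKM (3.30 ± 0.09, adjusted p = 5.26e-06). Both pairs kept no overlap between the groups. Cox7a1, the muscle form, was at 5.37, 2.13 and 5.16 against 1101, 1183 and 1291 FPKM (-8.22 ± 0.35, adjusted p = 1.86e-06), while its counterpart Cox7a2 overlapped at 183, 185 and 218 FPKM in the cells and 218, 239 and 228 FPKM in the muscle (adjusted p = 0.0536). The ADP/ATP carriers followed the same division, with Slc25a4, of heart and muscle, at 510.1 ± 51.4 FPKM in the cells and 3236 ± 96.0 FPKM in the muscle (-2.67 ± 0.10, adjusted p = 1.17e-06) and Slc25a5, of dividing cells, at 507 ± 75.9 FPKM in the cells and 24.0 ± 2.18 FPKM in the muscle (4.39 ± 0.13, adjusted p = 2.87e-06).

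Of 28 tested genes of fatty acid uptake and oxidation, 14 were lower in the cells, 3 were higher and 11 were not called. Among all genes tested, 14.7% were lower and 30.1% higher. Entry and binding proteins were among the lower genes, with Fabp3 at 9.88, 11.1 and 11.3 against 295, 306 and 331 FPKM (-4.84 ± 0.08, adjusted p = 1.08e-07). Cd36, the fatty acid translocase of muscle, endothelium and macrophages, was at 5.67, 0.106 and 0.401 against 25.3, 25.1 and 24.5 FPKM (-4.90 ± 1.16, adjusted p = 0.00775), with its highest value in the cells in the library that held traces of macrophage genes. Without that library its difference was -6.29. Cpt1b, the muscle form of the carnitine transferase at the mitochondrial entry, was at 3.18, 3.07 and 1.07 against 119, 115 and 113 FPKM (-5.65 ± 0.40, adjusted p = 3.38e-05). Cpt1a, the liver form, was at 8.70, 8.45 and 7.61 against 1.03, 0.846 and 1.23 FPKM (2.89 ± 0.16, adjusted p = 6.14e-05). The oxidation enzymes Acadl and Hadha were at 64.2 and 110.1 FPKM in the cells and at 64.1 and 99.3 FPKM in the muscle and were not called. Ucp3, an uncoupling protein of muscle, was at 0.0307, 0.0250 and 0.0949 against 51.2, 51.7 and 51.5 FPKM (-8.45 ± 0.20, adjusted p = 2.44e-07).

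Genes that build new cell material were higher in the cells. None of 23 tested genes of the pentose phosphate, serine and nucleotide pathways was lower, 18 were higher and 5 were not called, with a median of 3.40. Over all genes tested, 30.1% were higher and 14.7% lower, with a median of 1.18. Phgdh, the first enzyme of serine synthesis, was at 180.4, 186 and 246 FPKM in the cells and at 0.524, 0.347 and 0.307 FPKM in the muscle (8.70 ± 0.20, adjusted p = 5.72e-07). G6pdx, the entry enzyme of the pentose phosphate pathway, was at 62.8, 70.8 and 82.9 against 1.93, 1.25 and 1.36 FPKM (5.50 ± 0.19, adjusted p = 3.08e-06). Mthfd2, of mitochondrial one-carbon metabolism, was at 58.7, 48.3 and 77.9 against 2.34, 2.21 and 2.35 FPKM (4.66 ± 0.18, adjusted p = 5.91e-06). Asns, the asparagine synthetase, was at 84.3 ± 14.3 FPKM in the cells and 1.05 ± 0.0918 FPKM in the muscle (6.19 ± 0.14, adjusted p = 7.32e-07). G6pdx is also a target of Nrf2, the transcription factor that isothiocyanates activate, and the part of the treatment in its level was not tested.

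Lipid and cholesterol synthesis was alike, with 11 of 20 tested genes higher, none lower and 9 not called. The shares over all genes were 30.1% higher and 14.7% lower. Fasn, the fatty acid synthase, was at 36.0, 45.1 and 35.6 against 1.44, 1.35 and 1.55 FPKM (4.65 ± 0.12, adjusted p = 1.29e-06). Sqle, a regulated enzyme of cholesterol synthesis, was at 37.1, 42.9 and 38.032 against 1.12, 0.713 and 0.866 FPKM (5.32 ± 0.17, adjusted p = 1.98e-06). Acly and Acaca, which supply the building blocks of fatty acids, were at 20.1 ± 0.575 and 9.41 ± 0.484 FPKM in the cells and at 2.79 ± 0.164 and 1.58 ± 0.199 FPKM in the muscle (2.80 ± 0.09, adjusted p = 4.61e-06 and 2.51 ± 0.13, adjusted p = 6.54e-05). Hmgcs1, an early enzyme of cholesterol synthesis, was at 0, 1.75 and 1.42 FPKM in the cells and 2.49, 4.95 and 0 FPKM in the muscle and was not called. Among energy regulators, Ppargc1a, the coactivator of mitochondrial genes, was listed at 0 in the cells and was at 1.96, 2.70 and 3.86 FPKM in the muscle (adjusted p = 2.08e-05). Esrra, one of its partners, was at 20.9, 24.1 and 25.8 against 55.4, 56.1 and 56.5 FPKM (-1.25 ± 0.09, adjusted p = 2.02e-05). Mb, for myoglobin, the oxygen store of fibres, was at 18.4, 22.2 and 15.5 against 734, 779 and 802 FPKM (-5.37 ± 0.13, adjusted p = 6.38e-07). Vegfa, the angiogenic growth factor, was called lower in the cells at 35.8, 37.0 and 29.8 against 101, 98.4 and 94.6 FPKM (-1.52 ± 0.10, adjusted p = 0.000108), but was at 32.8 FPKM on average in mice given LPS and MIC-1.

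Genes of the cell cycle were higher in the cells almost without exception. All 35 tested DNA replication genes, 38 of 39 mitosis genes and all 14 G1 genes were higher in the cells, with medians of 5.51, 5.85 and 4.58 beside 1.18 over all genes. Leaving out single libraries gave 35, 38 to 39 and 12 to 14 genes. Under 1 FPKM in all muscle libraries were 18 of 35 replication genes, 35 of 41 mitosis genes and 8 of 15 G1 genes. Those of them that were tested passed the filter only through the cells, so their direction was fixed in advance. Mcm2, of the replicative helicase, was at 110.0, 117 and 145 FPKM in the cells and at 3.08, 2.47 and 2.13 FPKM in the muscle (5.55 ± 0.17, adjusted p = 1.94e-06). Pcna, the sliding clamp of DNA polymerase, was at 447, 381 and 575 against 13.4, 14.8 and 14.5 FPKM (5.01 ± 0.15, adjusted p = 2.65e-06). Rrm2, which makes deoxynucleotides, was at 223, 158 and 249.5 against 0.402, 0.254 and 0.0735 FPKM (9.36 ± 0.40, adjusted p = 6.27e-06). Mcm5, another helicase subunit, was at 82.3, 37.3 and 40.6 FPKM in the cells and listed at 0 in the muscle. The cells and the muscle did not overlap for any of these 4 replication genes.

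Mitosis genes were at very low levels in the muscle. Top2a, the topoisomerase of chromosome condensation, was at 81.7, 49.3 and 68.7 against 0.0875, 0.102 and 0.0735 FPKM (8.45 ± 0.21, adjusted p = 4.85e-07). Mki67, the proliferation marker Ki-67, was at 37.0, 19.6 and 27.0 against 0.0888, 0.110 and 0.0522 FPKM (7.21 ± 0.27, adjusted p = 2.66e-06). The second library of the cells had the lowest value of both. It was also lowest for Cdk1, the mitotic kinase, at 49.963, 35.9 and 52.7 against 0.0352, 0.0874 and 0.0708 FPKM (8.13 ± 0.21, adjusted p = 8.61e-07), for its partner Ccnb1 at 12.993, 6.99794 and 13.2 against 0.0691, 0.137 and 0.104 FPKM (5.73 ± 0.31, adjusted p = 1.53e-05) and for Plk1 at 41.8, 26.4 and 43.3 against 0.508, 0.541 and 0.437 FPKM (5.94 ± 0.21, adjusted p = 2.90e-06). The exception to the direction was Pttg1, which encodes securin, at 63.6, 39.5 and 65.5 FPKM in the cells and 137, 148 and 151 FPKM in the muscle (-1.41 ± 0.20, adjusted p = 0.000612). This gene was named after its value was seen.

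In the control of G1, Ccnd1, cyclin D1, was at 145, 172 and 185 FPKM in the cells and at 3.21, 1.86 and 2.81 FPKM in the muscle (5.97 ± 0.21, adjusted p = 3.23e-06). Cdk4, its kinase, was at 464, 471 and 627 against 12.8, 16.9 and 14.6 FPKM (5.13 ± 0.16, adjusted p = 2.73e-06). Myc, the growth regulator, was at 29.1, 29.6 and 24.7 against 1.26, 0.991 and 1.20 FPKM (4.48 ± 0.13, adjusted p = 1.42e-06). Cell cycle inhibitors had no common direction, with 4 of 16 tested genes higher, 5 lower and 7 not called. All genes tested had 30.1% higher and 14.7% lower. The median of the inhibitors was 0.52 as deposited and -0.54 after median-ratio scaling. Cdkn1a, the inhibitor p21 that p53, stress and differentiation induce, was at 281, 268 and 330.3 FPKM in the cells and at 6.22, 7.54 and 7.06 FPKM in control muscle (5.38 ± 0.11, adjusted p = 6.93e-07). It averaged 136 FPKM in mice given LPS and MIC-1. Cdkn1c, the inhibitor p57, was at 0, 0.523 and 0 against 14.8, 26.0 and 19.2 FPKM (-6.73 ± 0.75, adjusted p = 0.000202), and Cdkn1b, p27, overlapped at 15.4, 12.6 and 17.1 FPKM in the cells and 15.5, 15.3 and 14.3 FPKM in the muscle (-0.01 ± 0.12, adjusted p = 0.964). Cdkn2a was listed at 0 in all libraries of the cells and in 2 of the muscle libraries.

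Genes of chromatin assembly and of ribosome production were higher too, with 12 of 16 and 17 of 22 higher in the cells and none lower. Hmgb2, a chromatin protein of dividing cells, was at 37.0, 22.5 and 41.7 against 1.11, 0.496 and 0.560 FPKM (5.39 ± 0.35, adjusted p = 4.50e-05). Lmnb1, the lamin B1 of the nuclear envelope, was at 26.9 ± 4.23 against 1.75 ± 0.419 FPKM (3.88 ± 0.20, adjusted p = 2.37e-05). Fbl and Nop56, of the particles that modify ribosomal RNA, were at 284 ± 33.6 and 293 ± 12.8 FPKM in the cells and at 21.9 ± 1.38 and 17.7 ± 1.99 FPKM in the muscle (3.68 ± 0.10, adjusted p = 3.80e-06 and 4.04 ± 0.09, adjusted p = 9.55e-07).

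**Figure D5:**
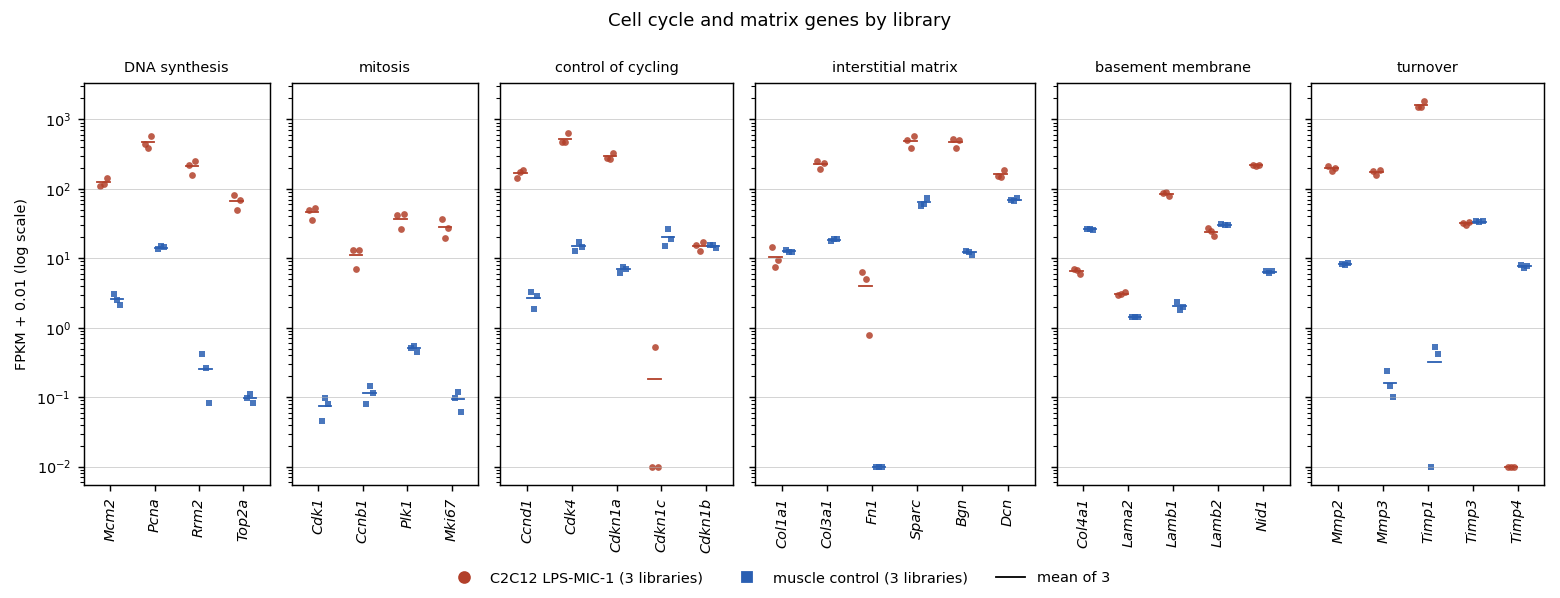
FPKM of cell cycle and matrix genes in each library (vertical axis, FPKM + 0.01 on a log scale), with red circles for the 3 libraries of the cells, blue squares for the 3 muscle libraries and bars for means. The 4 DNA synthesis and 4 mitosis genes are higher in every library of the cells than in every muscle library, while Cdkn1b, Col1a1 and Timp3 overlap and Col4a1, Cdkn1c and Timp4 are higher in the muscle.

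Many matrix genes were higher in the cells, among them collagens of the interstitium, while Col4a1, Col4a2 and Col15a1 were lower. Of 19 tested fibrillar collagen and processing genes, 10 were higher in the cells, 1 was lower and 8 were not called. Col3a1 was at 252, 191 and 238 FPKM in the cells and at 17.6, 18.7 and 18.9 FPKM in the muscle (3.61 ± 0.11, adjusted p = 3.68e-06). Col1a2 was at 112, 89.2 and 87.6 against 10.1, 10.9 and 11.4 FPKM (3.13 ± 0.11, adjusted p = 5.34e-06). Col1a1, which encodes the other chain of the same type I collagen, was not called, at 14.3, 7.57 and 9.29 FPKM in the cells and 13.2, 12.1 and 12.3 FPKM in the muscle (-0.32 ± 0.23, adjusted p = 0.319). The 2 chains of type I collagen thus stood at 10.4 for Col1a1 and 96.1 FPKM for Col1a2 in the cells, and at 12.6 and 10.8 FPKM in the muscle. Serpinh1, the collagen chaperone, was at 342, 311 and 382 against 45.2, 45.0 and 44.4 FPKM (2.93 ± 0.09, adjusted p = 7.53e-06). Plod2, a lysyl hydroxylase of collagen cross-links, was at 17.4 ± 0.879 against 1.69 ± 0.255 FPKM (3.30 ± 0.13, adjusted p = 9.16e-06). Col15a1, a collagen of vessel and fibre basement membranes, was lower at 0.0405, 0.0220 and 0.0625 against 6.44, 6.71 and 6.06 FPKM (-5.53 ± 0.22, adjusted p = 1.46e-06).

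The basement membrane, the sheath of each fibre and vessel, had 4 of 13 tested genes higher, 2 lower and 7 not called, shares close to the 30.1% and 14.7% of all genes. Col18a1, a collagen of this sheath, was higher at 17.3, 22.8 and 19.5 against 1.2953, 1.47 and 1.47 FPKM (3.72 ± 0.13, adjusted p = 7.10e-06). The 2 lower genes encode chains of its main collagen, with Col4a1 at 7.02, 6.85 and 5.91 against 26.7, 26.2 and 25.5 FPKM (-1.98 ± 0.09, adjusted p = 2.08e-05) and Col4a2 at 9.38, 8.71 and 8.37 against 22.6, 22.3 and 22.7 FPKM (-1.34 ± 0.07, adjusted p = 5.09e-05). Among the laminins, Lamb1 was at 85.6, 88.8 and 77.7 against 2.31, 1.79 and 1.98 FPKM (5.31 ± 0.11, adjusted p = 4.47e-07). Lamb2, the β chain of adult fibres and synapses, was at 26.9, 24.4 and 20.9 FPKM in the cells and 30.9, 30.3 and 30.2 FPKM in the muscle and was not called (-0.35 ± 0.10, adjusted p = 0.110). Lamb1 held 77.8 ± 1.48 percent of the sum of both in the cells and 6.22 ± 0.686 percent in the muscle. Lama2, the α chain of the adult fibre, was at 2.95, 3.04 and 3.25 FPKM in the cells and 1.40, 1.41 and 1.39 FPKM in the muscle and was not called (1.08 ± 0.13, adjusted p = 0.717). Nid1, which links laminin to collagen IV, was at 220.0, 214 and 221 against 6.45, 6.19 and 6.63 FPKM (5.06 ± 0.06, adjusted p = 1.10e-07).

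Of 24 tested adhesive and matricellular genes, 12 were higher in the cells, 6 lower and 6 not called. The shares over all genes were 30.1% higher and 14.7% lower. Bgn, for the small proteoglycan biglycan, was at 517, 385 and 509.9 against 12.9, 12.4 and 11.3 FPKM (5.25 ± 0.13, adjusted p = 8.75e-07). Sparc, a collagen-binding protein, was at 502, 384 and 573 against 57.3, 60.7 and 72.7 FPKM (2.92 ± 0.17, adjusted p = 0.000105). Thbs1, thrombospondin 1, was at 36.4, 27.0 and 27.5 against 0.103, 0.103 and 0.130 FPKM (7.15 ± 0.17, adjusted p = 4.26e-07), whereas Thbs4, of muscle and tendon, was listed at 0 in the cells and was at 21.0, 22.7 and 23.0 FPKM in the muscle. Fn1, for fibronectin, was at 6.32, 4.99 and 0.781 FPKM in the cells and listed at 0 in the muscle, as in both groups of treated mice. Whether the Fn1 row covers all transcripts of the gene is not given in the sources used here, so its level in muscle is uncertain. Spp1, for osteopontin, a product of macrophages and of myoblasts, was at 779.6, 34.2 and 24.4 against 0.942, 0 and 0.595 FPKM (7.70 ± 1.54, adjusted p = 0.00706), and its high value lay in the library with traces of macrophage genes. Without that library its difference was 6.12 and it was still called. Dcn and Lum, proteoglycans of connective tissue cells, were at 161 ± 19.7 and 5.17 ± 1.48 FPKM in the cells and at 69.4 ± 2.89 and 6.81 ± 0.726 FPKM in the muscle and were not called. Tnxb, a tenascin of connective tissue, was lower at 0.170, 0.145 and 0.160 against 5.12, 5.45 and 5.37 FPKM (-4.39 ± 0.18, adjusted p = 1.98e-06).

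Genes of matrix turnover were higher in the cells in 13 of 19 cases tested and lower in 2, with a median of 3.82. Over all genes, 30.1% were higher and 14.7% lower, with a median of 1.18. Mmp2, a gelatinase, was at 216, 180.2 and 202 against 8.15, 8.09 and 8.46 FPKM (4.58 ± 0.08, adjusted p = 3.34e-07). Mmp3, stromelysin, was at 178, 159.6 and 189 against 0.228, 0.136 and 0.0916 FPKM (9.48 ± 0.21, adjusted p = 4.85e-07). Timp1, a metalloproteinase inhibitor, was at 1493, 1483 and 1843 FPKM in the cells and at 0, 0.513 and 0.413 FPKM in the muscle (12.31 ± 0.68, adjusted p = 2.20e-05). Among the other inhibitors, Timp3 overlapped at 31.9, 30.5 and 33.2 FPKM in the cells and 34.0, 32.7 and 34.2 FPKM in the muscle (adjusted p = 0.641), and Timp4 was listed at 0 in the cells and was at 7.91, 7.15 and 7.75 FPKM in the muscle. In plasminogen activation, Plau, the activator uPA, was at 21.7, 21.8 and 21.8 against 4.53, 2.78 and 3.08 FPKM (2.65 ± 0.18, adjusted p = 0.000242). Plaur, its receptor, was at 229 ± 23.8 against 0.631 ± 0.176 FPKM (8.31 ± 0.18, adjusted p = 5.09e-07).

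Among markers of the other cells in muscle tissue, the endothelial and red cell lists were lower in the cells throughout. All 10 tested endothelial genes were lower in the cells, where the list summed to 1.40 to 1.81 FPKM against 175 to 185 FPKM in the muscle. In every library of the cells, 12 of 13 endothelial genes and all 3 red cell genes found were under 1 FPKM. Those of them that were tested passed the filter only through the muscle, so their direction was fixed in advance. Cdh5, the cadherin of endothelium, was at 0, 0.0148 and 0.0281 against 32.1, 31.5 and 29.9 FPKM (-8.10 ± 0.16, adjusted p = 1.56e-07), and Cldn5 was listed at 0 in the cells. Of 10 tested macrophage genes, 1 was higher in the cells and 3 were lower, or 6 lower without the first library of the cells. The globin Hbb-b1 of red cells was listed at 0 in the cells and was at 54.7, 57.3 and 55.4 FPKM in the muscle. Markers of interstitial fibroblasts were split, with 4 of 8 lower, such as Dpt at 0.228, 0.222 and 0.492 against 9.94, 9.97 and 12.2 FPKM (-4.76 ± 0.28, adjusted p = 7.22e-06), and 2 higher, Ly6a at 385, 399 and 538 against 13.4, 10.6 and 11.6 FPKM (5.20 ± 0.16, adjusted p = 2.39e-06) and Cd34 at 108 against 14.1 FPKM. Scx, a transcription factor of tendon, was at 82.9, 80.6 and 105 against 4.43, 2.78 and 3.74 FPKM (4.59 ± 0.19, adjusted p = 8.83e-06), while Tnmd, a product of mature tendon, was listed at 0 in the cells. Of the other lists, 3 of 7 smooth muscle and pericyte genes were lower in the cells and 1 was higher. Of 2 Schwann cell genes, 1 was lower and 1 higher. The 1 tested adipocyte gene was lower and no T or B cell gene was high enough to test. The counts of these short marker lists stand beside 14.7% lower and 30.1% higher among all genes. The part of the other cells of muscle tissue in the differences of collagen IV, Fabp4 or elastin was not tested.

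Genes that the treatment is known to act on were among those higher in the cells. Of 18 tested LPS-responsive genes, 12 were higher, 2 lower and 4 not called, beside 30.1% higher and 14.7% lower among all genes. Leaving out single libraries gave 10 to 14 higher genes. Ccl2 and Cxcl1, chemokines that LPS induces, were at 313, 381 and 455 and 402, 498 and 574 FPKM in the cells and at 0.240, 0.119 and 0.119 and 0.286, 0.283 and 0.0951 FPKM in the muscle (10.55 ± 0.22, adjusted p = 4.21e-07 and 10.63 ± 0.30, adjusted p = 1.13e-06). Il6 was at 13.6, 9.32 and 14.1 FPKM in the cells and listed at 0 in the muscle. Lcn2, an acute-phase gene, was at 72.1, 3.96 and 3.38 against 0.445, 0.991 and 0.111 FPKM (4.33 ± 1.28, adjusted p = 0.0471), with the high value in the library that held traces of macrophage genes. It lost its call without that library (difference 2.91, adjusted p = 0.0572) and without any 1 muscle library (adjusted p 0.0515 to 0.140). Saa3 was at 81.3, 53.3 and 55.2 FPKM in the cells and listed at 0 in the muscle, while it averaged 511 FPKM in mice given LPS and MIC-1.

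Of 17 tested Nrf2 target genes, which isothiocyanates induce, 14 were higher in the cells, none was lower and 3 were not called. Among all genes tested, 30.1% were higher and 14.7% lower. Nqo1, a quinone reductase, was at 181, 191 and 216 against 17.0, 21.6 and 19.9 FPKM (3.32 ± 0.12, adjusted p = 1.04e-05). Txnrd1, the thioredoxin reductase, was at 157, 164 and 151 against 20.3, 21.2 and 22.1 FPKM (2.89 ± 0.07, adjusted p = 2.21e-06). Gclm, of glutathione synthesis, was at 25.8, 26.1 and 28.1 FPKM in the cells and 15.5, 13.5 and 15.9 FPKM in the muscle and was not called (0.83 ± 0.09, adjusted p = 0.0657). Hmox1, heme oxygenase, was at 179, 67.4 and 75.5 against 7.38, 8.29 and 7.71 FPKM (3.62 ± 0.37, adjusted p = 0.000572), with its highest value in the library that held traces of macrophage genes. No untreated C2C12 library with myoblast genes was among those analysed, so treatment and cell type cannot be told apart for these genes.

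The mice that had received MIC-1 (80 mg/kg, for 3 days) and LPS (10 mg/kg, 16 h before collection) offered a second muscle group, treated with the same agents at other doses and times. With their 3 libraries in place of the control muscle, 3290 genes were higher in the cells and 1689 lower. Of the genes called against control muscle, 84.0% of the higher and 78.7% of the lower ones were called again in the same direction, and 14 were called in the opposite direction. Against muscle of mice given LPS alone, these shares were 93.6% and 89.3%, with 1 opposite call. Both alternative comparisons share the libraries of the cells with the main one. Among the genes described above and followed across the alternatives, the differences of Myl2 (-2.40), Tnnt1 (-0.40), Lcn2 (-6.95), Saa3 (-3.04) and Vegfa (0.05) had the opposite sign with the mice given both agents. Cdkn1a (1.10), Esrra (-0.96), Spp1 (3.78) and Tpm3 (0.25) kept their sign but were no longer called, and Myod1 (3.49) and Hk2 (-1.11) were called. Musk, not called against control muscle, averaged 2.52 FPKM in the cells, 1.91 FPKM in control muscle and 16.4 FPKM in mice given both agents. Actc1 made up 2.34 ± 0.198 percent of Acta1 and Actc1 in the cells, against 4.99 ± 0.148 percent in control muscle and 2.97 ± 0.108 percent in mice given both agents.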

How the data were processed

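RNA was sequenced from C2C12 cells and mouse muscle. The authors quantified transcripts with kallisto against mm9 and summarised them to genes, and deposited FPKM (fragments per kilobase of transcript, scaled to library size) in 1 table per experiment, each scaled separately. Tool and build are those of the submitters' processing notes. Reads per library are not given in the sources used here. The DESeq2 comparison columns and tables hold the authors' fold changes and p-values and were not used, nor were 11 columns that name no sample, 9 of them with per-sample values.

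The 3 C2C12 LPS-MIC-1 and 3 muscle control columns were joined by gene symbol, and genes with a mean FPKM over 1 were kept. log2(FPKM + 0.1) was fitted with limma 3.58.1 (empirical Bayes with trend, R 4.3.3) on values as deposited, on equal totals and on median-ratio scaling. A fold change on this scale understates that of low genes. A call needed a Benjamini-Hochberg adjusted p under 0.05 and a difference over 1 in the same direction in all 3 fits. The procedure was tested on simulated data. Tables and plots were made with Python 3.11.15, pandas 2.3.3 and matplotlib 3.10.9.

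The genes, their lists and the tests were chosen with earlier results of these data known. Named genes were anchor members marked in each list, the 2 largest called differences of each list, and the 8 largest called differences in each direction among genes above 0 in all 6 libraries. Of these, the ones described carry their values, some are not reported here, and a few others were named after their values were seen. Replicates are samples of 1 label, and separate cultures are not stated, so p-values measure the spread between these samples, which may be technical. Cultures and mice with the same replicate number are not paired. Alternatives were other scalings, pseudocounts, filters and thresholds, a replicate block, all 18 libraries, treated mice in place of controls and each library left out.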

Additional observations from a re-analysis of the deposited data

How the results depend on the processing

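With FPKM as deposited alone, 5657 genes were higher in the cells, and with equal totals alone 5752. With a difference over 2, 1924 were higher and 1052 lower. Median-ratio scaling alone gave 2950 lower genes, quantile normalization 2980, and a mean FPKM over 5, with fewer genes tested, 965. Leaving out each library gave 3189 to 3320 higher and 1487 to 1674 lower genes. The replicate block gave 3292 and 1608, and same-numbered cultures and mice did not deviate together (r = 0.006, -0.027 and -0.038), so the block pairs nothing.

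With muscle LPS-MIC-1 in place of control muscle, the differences of Lcn2 (-6.95), Myl2 (-2.40), Saa3 (-3.04), Tnnt1 (-0.40) and Vegfa (0.0534) were reversed. The share differences, in percentage points, moved to -0.634 for the share of Actc1 among Acta1 Actc1, 98.9 for Pgam1, 93.9 for Cox8a, 96.3 for Slc2a1 and 66.9 for Lamb1. The cause was not tested. Of 269 named genes called, 225 held their call under every alternative run. Fits on a single scaling, or without the bound on the difference, could not lose a call, since the main rule already includes them. Many named genes were also picked for large called differences, so this count does not describe called genes in general. Depth limits genes near 0 FPKM, whose differences depend on the 0.1 added.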

Other observations

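The following genes were chosen after their values were seen. Ribosomal protein genes were mostly higher in the cells, with 57 of 74 tested called higher and 2 lower, and a median difference of 2.43 as deposited and 1.35 after median-ratio scaling. The 2 lower genes were Rpl26, at 14.6, 16.1 and 25.0 FPKM in the cells and 571, 570.0 and 563 FPKM in the muscle, and Rpl29, at 1.87, 2.52 and 2.08 FPKM in the cells and 36.1, 46.6 and 48.3 FPKM in the muscle. Many ribosomal genes have processed copies in the genome, so their levels are uncertain.

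The muscle paralogs of translation also differed by isoform. Rpl3 was at 1588, 1490.2 and 1858 FPKM in the cells and 20.5, 20.9 and 20.6 FPKM in the muscle. Its muscle paralog Rpl3l was at 0.0792, 0.384 and 0.266 FPKM in the cells and 581, 585 and 602 FPKM in the muscle. Eef1a1, the general elongation factor, was at 5125, 4851 and 6551 FPKM in the cells and 116, 121 and 114 FPKM in the muscle. Eef1a2, its muscle and nerve form, was at 0.124, 0.181 and 0.137 FPKM in the cells and 349, 342 and 326 FPKM in the muscle.

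Among the largest differences upward were Gm5506 (11.31), Cxcl5 (11.21), Lgals3 (11.07), Cxcl1, Ccl2, S100a4 (9.95) and Ccl7 (9.78) among genes above 0 in both groups. Gm5506 is a near copy of Eno1, so its level is uncertain. A further 30 genes over 20 FPKM in the cells were listed at 0 in all muscle libraries, and 22 genes over 20 FPKM in the muscle were listed at 0 in all the cells.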
